A study of Mus musculus with 23 samples.

Results

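The 10 genes described here encode the T cell receptor complex and the proteins that carry its first signals, and they were chosen by name: Cd3d, Cd3e, Cd3g and Cd247 (the CD3 chains), Trbc1 and Trbc2 (the constant regions of the beta chain), and Lck, Themis, Cd6 and Lat (proximal signalling). All 10 were present among the 19945 genes of the deposited table, and all 10 passed the filter on low values that left 15268 genes for testing (a normalized count of at least 10 in at least 5 libraries).

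The study followed group 2 innate lymphoid cells (ILC2s) of the mouse from culture into the circulation and the brain after stroke, in 23 RNA sequencing libraries. Donors were male mice aged 8 to 10 weeks of the genotype B6.Cg-Tg(CAG-GFP)Smoc, transgenic and wild-type, in which the CAG promoter drives green fluorescent protein in most tissues. They were injected with IL-33 into the abdomen every 2 days for 7 days. Bone marrow and spleen cells that carried CD25 but none of the lineage antigens CD11b, Gr1, CD3ε, CD45R/B220 and Ter119 were separated with magnetic beads, kept for 14 days with 4 cytokines (IL-33 and the interleukins 15, 7 and 2), and sorted as CD45+Lin-ST2+KLRG1+CD127+. Sorted cells were given intravenously 6 hours after occlusion of the middle cerebral artery (MCAO). The groups are culture (base, 5 libraries, no transfer), blood day 1 (6 libraries), blood day 5 (6 libraries) and brain day 5 (6 libraries). All 4 share the donors' treatment and the culture with cytokines. How cells were sorted on recovery, whether the culture libraries passed the final sort and whether a replicate was 1 animal is not given in the sources used here, so p-values measure the spread between these libraries, which may be technical. Each group holds libraries of both labelled batches (12 libraries in batch 1 and 11 in batch 2).

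In T cells, the clonotypic alpha and beta (or gamma and delta) chains bind antigen but have almost no cytoplasmic tail, so the CD3 gamma, delta, epsilon and zeta chains carry the signal. LCK phosphorylates their tyrosine motifs, ZAP-70 docks there, and LAT is then phosphorylated and gathers the enzymes that raise calcium and activate Ras and NF-kB. ILC2s are defined by the absence of a rearranged antigen receptor on the surface, although they share many transcription factors with T helper cells and can transcribe parts of the receptor loci. CD3 zeta, the product of Cd247, also signals for activating receptors of natural killer (NK) cells, which lack the other CD3 chains on the surface.

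Because Trbc1 and Trbc2 are nearly the same sequence, their counts can be split between them by the counting. Their first exons of 375 bases were 99.7% identical (GRCm38), and 110 of 226 windows of 150 bases, the read length, held no difference.

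The variable segment Trbv12-2 is shown with its closest relative, Trbv12-1, since the beta chain transcripts of the culture libraries turned on it (exon 2, GRCm38, plus strand, chr6:41119072-41119364 and chr6:41113775-41114067). Capitals mark the 32 of 293 bases at which they differ (89.1% identity), so these 2 segments could be told apart by reads across the exon.
Trbv12-2: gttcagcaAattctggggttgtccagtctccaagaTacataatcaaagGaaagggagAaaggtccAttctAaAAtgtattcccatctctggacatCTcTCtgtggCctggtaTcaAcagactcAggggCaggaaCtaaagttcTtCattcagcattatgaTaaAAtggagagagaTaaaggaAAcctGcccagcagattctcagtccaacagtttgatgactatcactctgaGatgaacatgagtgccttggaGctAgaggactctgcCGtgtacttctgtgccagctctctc
Trbv12-1: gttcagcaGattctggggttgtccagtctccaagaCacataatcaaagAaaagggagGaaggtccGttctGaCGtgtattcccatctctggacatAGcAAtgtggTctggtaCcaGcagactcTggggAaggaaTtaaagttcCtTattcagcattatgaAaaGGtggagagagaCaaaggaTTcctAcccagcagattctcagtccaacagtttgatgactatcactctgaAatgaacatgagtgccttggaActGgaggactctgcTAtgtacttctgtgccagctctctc

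Promoters of Lck, Cd3g and Cd3d are shown because Lck moved apart from the CD3 genes between culture and blood, while Cd3g and Cd3d, whose starts lie 1355 bases apart on opposite strands, moved together. Each runs from 250 bases before to 50 bases after the start in RefSeq (GRCm38.p6): Lck on the minus strand at chr4:129573592-129573891, Cd3g on the minus strand at chr9:44980382-44980681 and Cd3d on the plus strand at chr9:44981536-44981835. Capitals mark matches on either strand, none of which overlap. One motif searched was the E-box CAGGTG, the kind of site that E proteins bind in lymphocytes. Another was TGTGGT, the core of sites for RUNX factors. The last one shown here was AGATAA, the core of sites for GATA factors.
Lck: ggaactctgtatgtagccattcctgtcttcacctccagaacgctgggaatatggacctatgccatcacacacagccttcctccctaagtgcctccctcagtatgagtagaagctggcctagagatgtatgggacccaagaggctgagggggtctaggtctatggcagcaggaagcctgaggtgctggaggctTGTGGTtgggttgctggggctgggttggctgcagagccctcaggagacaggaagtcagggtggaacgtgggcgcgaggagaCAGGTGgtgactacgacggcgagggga
Cd3g: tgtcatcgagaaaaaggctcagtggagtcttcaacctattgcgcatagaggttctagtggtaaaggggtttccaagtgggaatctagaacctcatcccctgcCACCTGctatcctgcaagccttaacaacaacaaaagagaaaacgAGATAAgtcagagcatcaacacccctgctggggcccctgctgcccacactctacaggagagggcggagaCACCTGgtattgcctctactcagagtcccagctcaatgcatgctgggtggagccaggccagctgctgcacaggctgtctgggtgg
Cd3d: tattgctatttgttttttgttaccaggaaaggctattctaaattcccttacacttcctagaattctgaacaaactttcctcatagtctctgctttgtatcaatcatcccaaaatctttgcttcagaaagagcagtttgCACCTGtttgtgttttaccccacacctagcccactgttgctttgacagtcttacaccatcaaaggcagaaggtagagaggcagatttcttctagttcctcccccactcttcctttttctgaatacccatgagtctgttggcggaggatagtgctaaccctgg

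RefSeq entries were matched for 7 of the 10 genes (9 promoters), without Trbc1, Trbc2 and Cd6. The E-box letters were in promoters of Cd3d, Cd3e, Cd3g, Cd247 and Lck, against 20.2% of 32851 promoters of this length. RUNX letters were in Lat and in the Lck promoter shown (16.8% of all promoters), but not in the other Lck promoter (chr4:129558323-129558622). GATA letters were in Cd3g (11.2%), while CCGGAA (ETS, 14.9%) and TATAAA (13.6%) were in none of the 9. A match is a description of these letters and not a binding site.

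Depth differed by batch: the libraries of batch 1 held 11.6 to 16.9 and those of batch 2 held 27.8 to 58.1 (in units of 1e6 recovered reads). Culture replicate 5, blood day 1 replicates 2 and 6 and brain replicate 2 were taken as 4 libraries standing apart from their groups. Results that rest on them are given with and without them. The choice followed no stated criterion. By chi-square per degree of freedom, brain replicate 6 was farther from its group (463 to 741) than brain replicate 2 (349 to 548). Culture replicates 1 to 3, and brain replicates 1 and 3, were far closer to each other than other libraries of a group (chi-square per degree of freedom 3.44 to 9.77, against 36.5 to 1182 for other pairs), and each was kept as a library. Of the ILC2 sort markers, Klrg1 was high in culture (mean normalized count 23914, SD 14713, n = 5), as was Ptprc, which encodes CD45 (16277, SD 2893). Il1rl1, which encodes ST2, had a mean of 1.08 (highest library 5.42), and Il7r, which encodes CD127, of 24.5 (SD 29.6). Il5, which is no sort marker, had a mean of 0.361. At Il1rl1 and Il7r the RNA of the culture libraries thus went against the sort label. Trgc1, Trgc2, Trgc4, Il13 and Areg were not analysed here.

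Values below are normalized counts (read counts divided by 1 factor per library). Differences are log2 differences of normalized count + 1 with their standard errors (SE) from limma with the batch in the model, and adjusted p-values are Benjamini-Hochberg values over all 15268 genes. A gene is called where its adjusted p is under 0.05. Bulk libraries cannot tell fewer cells of a type from less RNA per cell. The 3 comparisons with culture share the same 5 culture libraries, and both comparisons with blood day 5 share its 6 libraries, so values from them stand side by side and are not independent.

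RNA of the CD3 chains and beta constant regions was abundant in culture and in blood and near 0 in brain, while the kinase Lck and the surface protein Cd6 were close to 0 in culture, high in blood and low again in brain. Between blood day 1 and culture, 3 of the 10 genes rose (Lck, Cd6, Lat) and 3 fell (Cd3d, Cd3g, Themis), where 18.1% of all tested genes were higher and 14.0% lower. For blood day 5 against culture, 3 rose (the same 3) and 4 fell (Cd3d, Cd3e, Cd3g, Trbc1), against 19.6% and 11.4%. In brain against culture 0 rose and 8 fell, against 37.5% and 11.7%. Blood day 5 against blood day 1 gave 0 in either direction, against 0.0982% and 0.00655%, and brain against blood day 5 gave 0 higher and 10 lower, against 33.6% and 14.3%. The median log2 difference of the 10 genes was -0.41, -0.70, -9.38, -0.35 and -8.54 in these comparisons, beside 0.04, 0.14, 0.67, 0.12 and 0.47 over all genes tested.

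**Figure D1:**
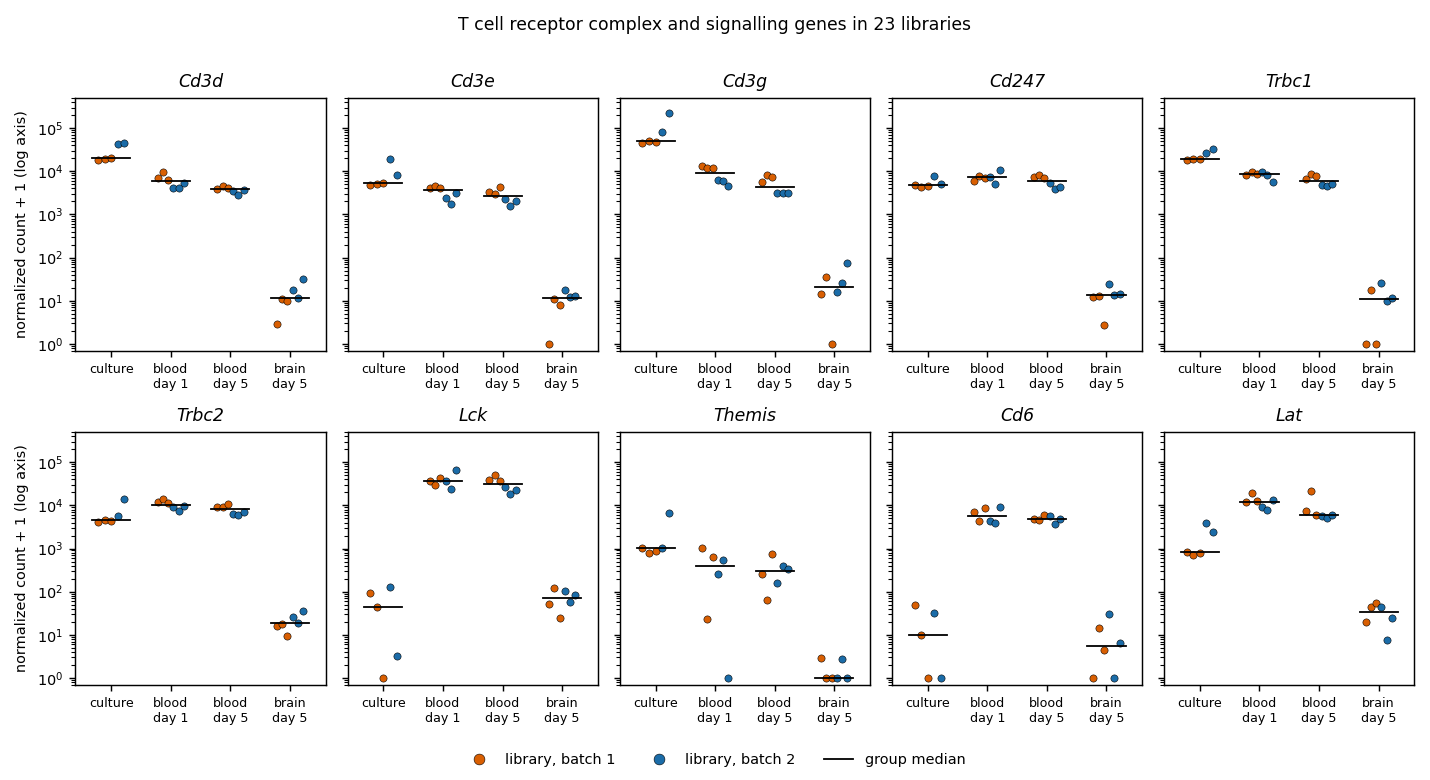
Normalized count + 1 (log axis) of each of the 10 genes in 23 libraries, as points coloured by batch with the group median as a line. Cd3d, Cd3e, Cd3g and Trbc1 were highest in culture, Lck and Cd6 were high in the 12 blood libraries alone, and the highest brain value of any gene was 122.7 (Lck).

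Cd3g, which encodes CD3 gamma (chr9:44969572-44980431, minus strand), had the highest values of the 10 genes in culture, at 45714, 49725, 48050, 80084 and 221732 in replicates 1 to 5. In blood day 1 it ran from 4644 to 13069 (median 9171), in blood day 5 from 3100 to 8375 (median 4427) and in brain from 0 to 75.1 (median 19.9). Every blood library lay below every culture library and every brain library below every blood library. Cd3g fell by 3.13 ± 0.73 (SE) on the log2 scale at blood day 1 (adjusted p = 0.0019 in limma) and by 3.96 ± 0.73 at blood day 5 (adjusted p = 1.65e-04). Within batch 1 the differences were -1.95 (not called, adjusted p = 0.138) and -2.76 (0.0501), and within batch 2 they were -4.56 and -5.41. Here and for the genes below, fits within a batch held all 4 groups, so the spread of brain libraries entered their p-values. In batch 1 Cd3g ran from 45714 to 49725 in culture and from 0 to 34.1 in brain. It ran from 11994 to 13069 in blood day 1 and from 5694 to 8375 in blood day 5.

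Cd3d (CD3 delta, chr9:44981786-44987339, plus strand) lies beside Cd3g and read out the same order. Culture libraries had 18615, 19238, 19974, 43049 and 44958, blood day 1 had 3990 to 9771 (median 5819), blood day 5 had 2849 to 4443 (median 3829) and brain had 1.87 to 30.7 (median 10.4). No 2 neighbouring groups overlapped except the blood days. The fall from culture was 2.25 ± 0.41 at blood day 1 (adjusted p = 1.91e-04 in limma) and 2.88 ± 0.41 at blood day 5 (8.80e-06), and both calls held in each of 25 alternatives.

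Cd3e (CD3 epsilon, chr9:44998740-45009627, minus strand), whose protein was 1 of the lineage antigens of the first separation, had 4847, 4968, 5431, 19429 and 8259 in the culture libraries. It ran from 1748 to 4477 (median 3586) in blood day 1, from 1594 to 4249 (median 2655) in blood day 5 and from 0 to 16.4 (median 10.8) in brain. The blood values were below all culture values but close to those of batch 1, where the differences were -0.26 at day 1 and -0.54 at day 5, against -2.43 and -2.70 in batch 2. Over both batches the difference at blood day 1 was -1.24 ± 0.55 and missed the threshold (adjusted p = 0.0879 in limma). It was called in 5 of 25 alternatives, among them edgeR (-1.32, adjusted p = 0.0328) and DESeq2 (-1.35, 0.00676). At day 5 Cd3e fell by 1.52 ± 0.55 (0.0388 in limma), a call lost in 12 of 25 alternatives, such as -1.16 (0.134) without culture replicate 4. It was also lost without the 4 libraries standing apart (-1.56, 0.0539).

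Cd247 (CD3 zeta, chr1:165788681-165877277) did not follow the other CD3 chains. Its values were 4764, 4407, 4541, 7826 and 5076 in culture, 5144 to 10672 (median 7173) in blood day 1, 3899 to 8153 (median 6018) in blood day 5 and 1.72 to 22.95 (median 12.4) in brain. Over both batches culture and blood overlapped, and the differences of 0.43 ± 0.38 (adjusted p = 0.418 in limma) and 0.12 ± 0.38 (0.863) were within the spread of the libraries. In batch 1 each culture library (4407 to 4764) was below each blood library (5867 to 8153). In batch 2 the means were 6451 in culture, 7677 in blood day 1 and 4505 in blood day 5. The batches thus went in opposite directions at day 5.

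As a description without a test, the log2 ratio of Cd247 to Cd3e was -0.49 ± 0.52 (SD, n = 5) in culture, 1.18 ± 0.53 (n = 6) in blood day 1 and 1.14 ± 0.25 (n = 6) in blood day 5, a ratio that the scaling of libraries does not move. Each culture library was below 0 (-1.31 to -0.02) and each blood library above it (0.49 to 1.77). The difference between blood day 1 and culture was 1.67 over both batches, 0.86 in batch 1 and 2.66 in batch 2. For blood day 5 it was 1.64, and 2.21 in batch 2. Cd3g to Cd3e moved the other way, from a log2 ratio of 3.30 ± 0.96 in culture to 1.41 ± 0.44 and 0.85 ± 0.34 in blood. In brain both ratios rest on 0 to 30 reads of Cd3e per library and give no order.

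**Figure D2:**
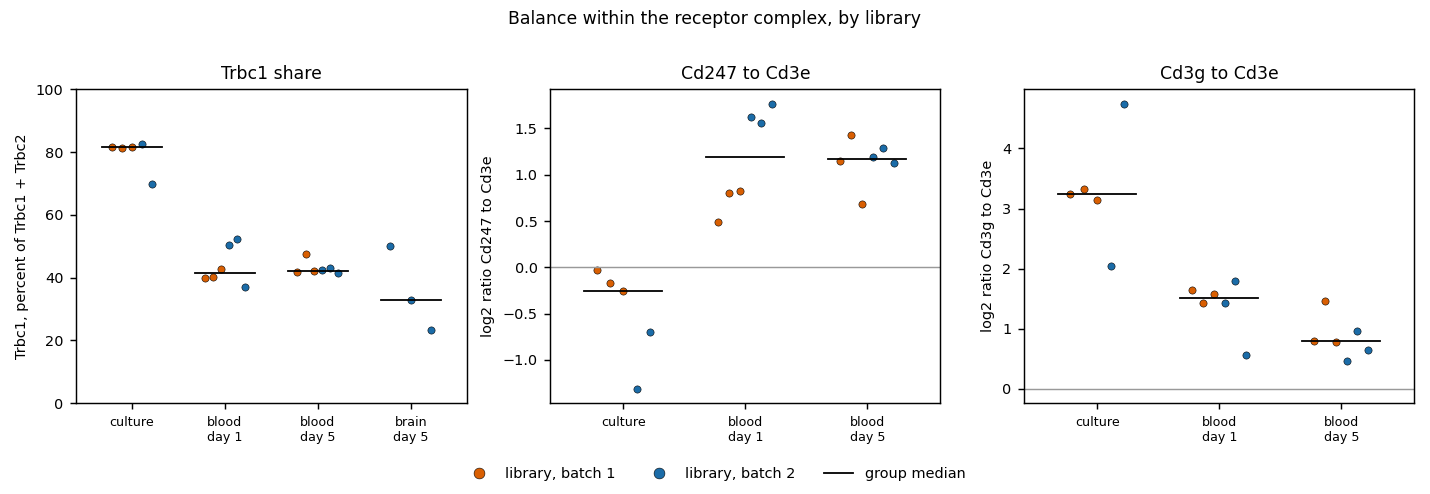
Share of Trbc1 in Trbc1 + Trbc2 (left, percent), log2 ratio of Cd247 to Cd3e (middle) and of Cd3g to Cd3e (right) in each library, coloured by batch, with the group median as a line. Culture lies above blood in the left panel and below it in the middle panel with no overlap, and the 3 brain points at left are the libraries with at least 50 reads over both genes.

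The 2 beta chain constant regions moved apart. Trbc1 (chr6:41538218-41539881) had 18661, 19531, 19748, 27172 and 32204 in culture, 5537 to 9629 (median 8445) in blood day 1, 4571 to 8446 (median 5886) in blood day 5 and 0 to 24.6 (median 9.71) in brain. Blood lay below culture in every library. The difference at blood day 1 was -1.55 ± 0.62 (adjusted p = 0.0597 in limma, not called), but it was called in 5 of 25 alternatives. Among them were limma on the culture and blood day 1 libraries alone (-1.51, adjusted p = 8.98e-04) and DESeq2 (-1.50, 1.82e-04). At blood day 5 Trbc1 fell by 1.98 ± 0.62 (0.0165 in limma). In the fit of batch 1 alone, which included its brain libraries, that fall was not called (-1.35, 0.28).

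Trbc2 (chr6:41546730-41548352) had 4206, 4533, 4445, 5670 and 13841 in culture, against 7584 to 14294 (median 10440) in blood day 1, 6031 to 10531 (median 8227) in blood day 5 and 8.61 to 35.6 (median 17.4) in brain. All blood libraries were above culture replicates 1 to 4, and culture replicate 5 was above all but 1 of the 12. The differences of 0.83 ± 0.32 (adjusted p = 0.0516 in limma) and 0.44 ± 0.32 (0.344) were not called. Without culture replicate 5 the first was 1.17 (0.0045). Without the 4 libraries standing apart, of which culture replicate 5 is 1, they were 1.08 (0.0133) and 0.75 (0.0488). Within batch 1 they were 1.52 and 1.14, and within batch 2 -0.02 and -0.44.

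Trbc1 made up 81.6, 81.2, 81.6, 82.7 and 69.9% of the counts of both constant regions in the culture libraries, 37.0 to 52.2% (median 41.5%) in blood day 1 and 41.4 to 47.6% (median 42.2%) in blood day 5. Every culture library was above every blood library, with the reservation that reads within exon 1 can be split between the genes by the counting.

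Lck, the kinase that starts the signal at the receptor (chr4:129548344-129573641, minus strand), had 93.9, 42.0, 0, 131 and 2.22 normalized counts in culture, 271 reads in all. It had 23780 to 65176 (median 37230) in blood day 1, 18621 to 49697 (median 31502) in blood day 5 and 24.1 to 122.7 (median 70.0) in brain. The lowest blood library was far above the highest culture library, and culture and brain overlapped. Lck rose by 11.04 ± 0.88 at blood day 1 (adjusted p = 2.09e-09 in limma) and by 10.74 ± 0.88 at blood day 5 (2.67e-09), with 11.13 and 11.33 in batch 1 and 10.88 and 10.09 in batch 2. In brain it was 1.89 ± 0.88 above culture and missed the threshold (0.0808). It passed without culture replicate 1 (2.50, 0.0222) or replicate 4 (2.72, 0.0107).

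Cd6, a scavenger receptor family protein of the T cell surface that docks signalling adaptors (chr19:10789341-10830058, minus strand), had 48.7, 9.13, 0, 31.2 and 0 in culture. Blood day 1 held 3957 to 8966 (median 5629), blood day 5 held 3705 to 6015 (median 4826) and brain 0 to 29.5 (median 4.41). Like Lck, it separated blood from culture and brain in every library. Cd6 rose by 9.73 ± 0.97 (adjusted p = 5.12e-08 in limma) and 9.46 ± 0.97 (7.27e-08) in blood, and was -0.52 ± 0.97 from culture in brain (0.692).

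Lat, the scaffold that LCK and ZAP-70 activate (chr7:126363824-126369570, minus strand), had 825, 712, 787, 3940 and 2450 in culture, so that both batch 2 libraries lay above those of batch 1. It ran from 7751 to 18836 (median 12170) in blood day 1, from 5078 to 21146 (median 6097) in blood day 5 and from 6.40 to 53.4 (median 33.0) in brain. No culture library reached a blood library. Lat rose by 3.14 ± 0.51 at day 1 (adjusted p = 4.63e-05 in limma) and by 2.48 ± 0.51 at day 5 (5.72e-04). Its differences were 4.18 and 3.67 in batch 1 and 1.66 and 0.86 in batch 2, where neither was called (0.0999 and 0.38).

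Themis, which sets the threshold of receptor signalling during T cell selection (chr10:28668360-28883818), was the most uneven of the 10 genes. Culture had 1033, 769, 880, 1014 and 6486, blood day 1 had 0 to 1034 (median 394), blood day 5 had 62.8 to 757 (median 300) and brain had 5 reads in all, with 4 of 6 libraries at 0. Blood day 1 and culture overlapped. The fall of 3.57 ± 1.29 at blood day 1 (adjusted p = 0.0385 in limma) was lost in 16 of 25 alternatives. It was -2.23 (0.0612) without blood day 1 replicate 6, which held no read, and -0.70 (0.448) without the 4 libraries standing apart. Those 4 libraries hold its highest culture value (6486) and its lowest blood day 1 values (0 and 21.7). At blood day 5 the difference was -2.40 ± 1.29 (0.177), and -1.80 (0.0235) without those 4.

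In brain, each of the 10 genes was low. The 10 together took 4.91e-04 to 0.00113% of the normalized total there, against 0.428 to 1.23% in culture, 0.245 to 0.606% in blood day 1 and 0.289 to 0.580% in blood day 5. Against culture 8 fell, with log2 differences of -12.18 ± 0.73 for Cd3g, -11.92 ± 0.62 for Trbc1, -11.25 ± 0.41 for Cd3d, -9.88 ± 0.55 for Cd3e, -9.88 ± 1.29 for Themis, -8.88 ± 0.38 for Cd247, -8.27 ± 0.32 for Trbc2 and -5.64 ± 0.51 for Lat, with adjusted p at most 8.23e-07 in limma. Against blood day 5 all 10 fell, from -7.49 ± 1.23 for Themis to -9.98 ± 0.92 for Cd6 (adjusted p at most 2.05e-05). The falls of Themis rest on the pseudocount, since most brain libraries held no read of it. The 8 and 10 genes called in the brain comparisons passed in each alternative run for them.

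**Figure D3:**
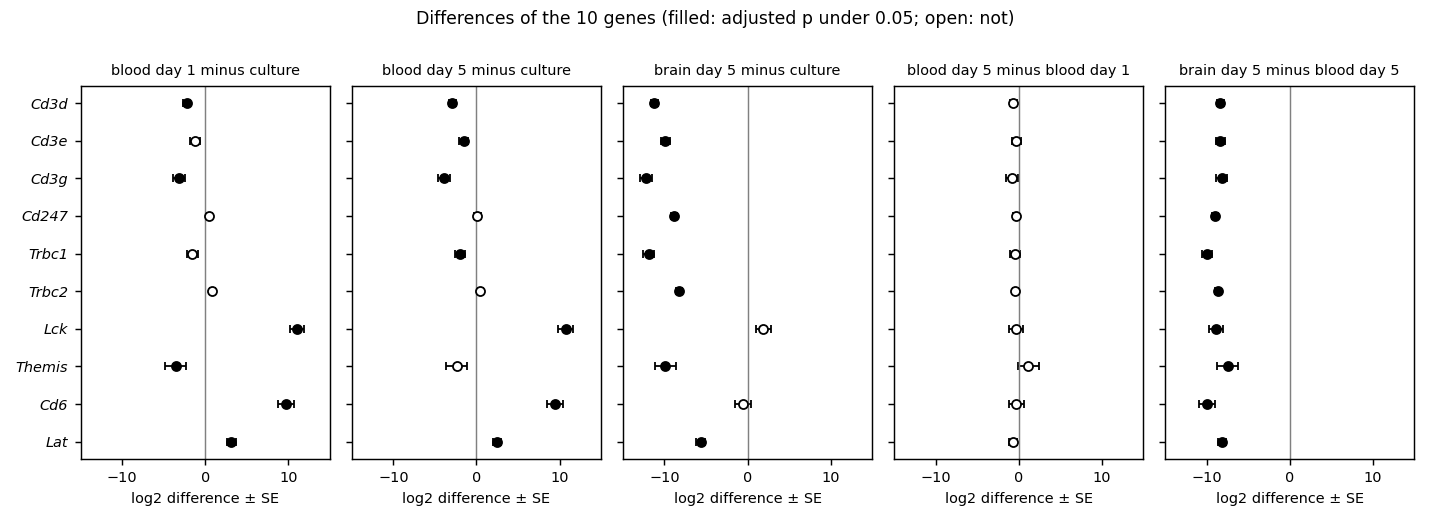
Log2 differences ± SE of the 10 genes in the 5 comparisons (limma, all 23 libraries). Filled points passed an adjusted p under 0.05, and the panel of blood day 5 against blood day 1 has none.

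Between the blood days no gene of the 10 passed, with differences from -0.83 ± 0.69 for Cd3g to 1.18 ± 1.23 for Themis (adjusted p of 0.69 or more in limma), none at an unadjusted p under 0.05, and none by edgeR or DESeq2 on the recovered reads. Over all genes, 15 were higher and 1 lower, with 1167 at an unadjusted p under 0.05.

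Per kilobase of exon, Trbc1 (31326 normalized counts per kb), Cd3g (27244) and Cd3d (16070) led in culture, followed by Trbc2 (9450), Cd3e (2105), Cd247 (999), Lat (630), Themis (174), Lck (18.4) and Cd6 (2.24). In blood day 1 the order was Trbc2 (15483), Lck (13389), Trbc1 (11046), Lat (4421), Cd3d (3351), Cd3g (2767), Cd247 (1371), Cd3e (813), Cd6 (781) and Themis (35.3). Lck thus stood ninth in culture and second in blood, and Cd3g went from second to sixth. Lengths are of the union of annotated exons (GENCODE M21), which need not be the transcripts present.

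Variable segments were counted apart from the constant regions, and bulk counts do not link a segment to a constant region. The table held 57 of them (22 Trbv, 29 Trav, 5 Trdv and 1 Trgv). In culture, Trbv12-2 (chr6:41118851-41119364) made up 99.7, 99.8, 99.8, 99.9 and 99.7% of all Trbv counts, at 6875, 8360, 7669, 12025 and 12576. In blood its share was 3.51 to 4.58% at day 1 and 3.26 to 4.73% at day 5. Trbv13-2 led in all 6 blood day 1 libraries and in 3 of blood day 5, and Trbv16 in the other 3, each leading segment with 16.4 to 25.8% of the Trbv counts. Trbv12-2 was singled out after its values were seen, so these shares are a description. Its closest relative Trbv12-1, shown above, had a mean of 1.81 in culture, 188 in blood day 1 and 138 in blood day 5.

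The log2 difference of Trbv12-2 from culture was -4.34 ± 0.43 (SE) in blood day 1 and -4.89 ± 0.43 in blood day 5, given with no test, while the Trbv counts in all were 9522 ± 2621 (SD, n = 5) in culture, 11372 ± 1056 (n = 6) and 7667 ± 699 (n = 6) in blood. Most Trbv counts thus came from 1 segment in culture and from many in blood. Trbv13-2 and Trbv16 had no read in any culture library. On a floor of 3 reads per library, Trbv13-2 was at least 612-fold higher in blood day 1 and at least 332-fold higher in blood day 5. Trbv16 was at least 429-fold and 316-fold higher. At least 50 normalized counts were reached by 1 Trbv segment in each culture library and by 18 to 21 in each blood library.

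Among delta chain segments, Trdv2-2 and Trdv4 had no read in culture and were at 1722 and 1694 in blood day 1, at least 428-fold and 422-fold higher on the same floor. The single gamma segment, Trgv2, had 580 to 1395 in culture, with means of 810 there, 290 in blood day 1 and 199 in blood day 5. Alpha segments were few in culture batch 1 (29.2 to 119 Trav counts in all) and higher in batch 2 (411 and 1797). Most of the batch 2 counts were of Trav3d-3 (194 and 766) and Trav3n-3 (166 and 669) in culture replicates 4 and 5. These 2 segments also had reads in batch 2 blood libraries and none in batch 1 of any group. Their variable exons are identical over 276 bases, so the split between them is uncertain. Other Trav segments, such as Trav12-3 and Trav13-1, also had no read in batch 1. Whether the batches were counted alike was not tested, so the Trav counts are not read as a difference between the cultures. The joining segment Trbj1-1 was at 0, 1.83 and 1.65 in culture batch 1 and at 1207 and 1013 in batch 2, so culture libraries of the 2 batches differed at this segment while sharing Trbv12-2. These segments were also chosen after their values were seen.

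Of the 57 segments, 7 to 12 had a read in a culture library and 29 to 54 in blood day 1. The numbers were 39 to 56 in blood day 5 and 0 to 11 in brain. In culture and both blood groups each library of batch 2 held more than each of batch 1. Batch 2 was more deeply read. Some Trav segments had no read in any batch 1 library. Among them Trav12-3 had a mean of 54.0 and Trav13-1 of 29.3 in batch 2 of blood day 1. The cause was not tested. All segments together took 0.0437 ± 0.0111% of the normalized total in culture (SD, n = 5), 0.0741 ± 0.0220% in blood day 1 (n = 6), 0.0626 ± 0.00314% in blood day 5 (n = 6) and 7.08e-05 ± 7.28e-05% in brain (n = 6). By a two-sided exact permutation test over libraries, adjusted over 5 comparisons, the share was higher than culture in blood day 1 (p = 0.026, adjusted 0.0325) and blood day 5 (p = 0.00866, adjusted 0.0144). The test took no account of the batch. Within batches 1 and 2 the differences were 0.0270 and 0.0299 percentage points at day 1. At day 5 they were 0.0270 and 0.00690. Brain was lower than culture and than blood day 5 (adjusted 0.0108 for both, with p at the smallest these designs allow, 0.00433 and 0.00216). Blood day 5 was -0.0115 percentage points from blood day 1 and did not pass (adjusted 0.236), but passed without blood day 1 replicate 2 (-0.0190, adjusted 0.00722). The difference at blood day 1 was 0.0304 percentage points and missed the threshold without any of culture replicates 1, 2 or 3 or blood day 1 replicates 1, 4 or 5 (adjusted 0.0595 to 0.0714). With Trav and Trbv segments alone neither blood comparison passed (differences of 0.0148 and 0.00374, adjusted 0.092 and 0.411).

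**Figure D4:**
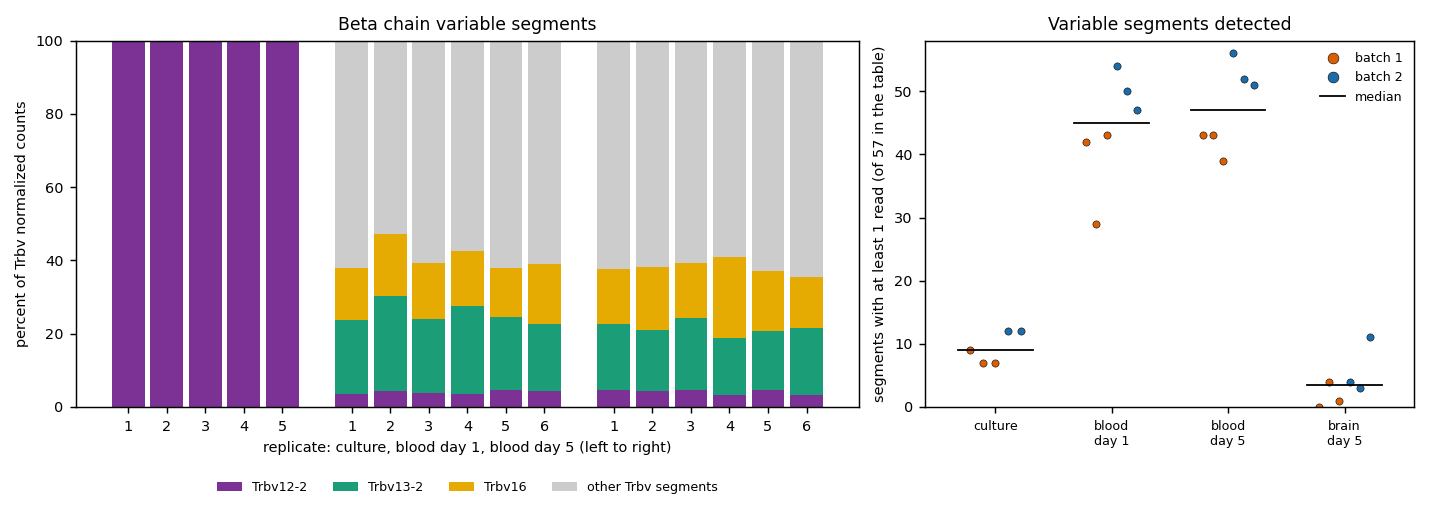
Left, share of Trbv12-2, Trbv13-2, Trbv16 and the other segments in the Trbv normalized counts of each culture and blood library (percent, stacked to 100). Right, number of variable segments with at least 1 read in each library, coloured by batch, with the group median as a line. Trbv12-2 fills 99.7 to 99.9% of each culture bar and 3.26 to 4.73% of each blood bar.

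The other genes of the receptor pathway were read from 6 lists with 61 names, of which 56 were in the table and tested. At blood day 1, 24 rose and 8 fell against culture, at blood day 5 23 rose and 6 fell, in brain 8 rose and 35 fell, and against blood day 5 the brain had 0 higher and 50 lower. The blood days differed in 0. Of all genes tested, 18.1% were higher and 14.0% lower at blood day 1, 19.6% and 11.4% at blood day 5, 37.5% and 11.7% in brain against culture, and 33.6% and 14.3% in brain against blood day 5. In the 4 comparisons other than that of the blood days, medians of the 56 were 0.86, 0.78, -2.12 and -4.50, beside 0.04, 0.14, 0.67 and 0.47 for all genes tested.

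Among constant regions, Trac (alpha chain) did not pass in blood: it had 4575 to 16923 in culture, 4144 to 9586 in blood day 1 and 2883 to 7080 in blood day 5, with differences of -0.16 ± 0.73 (adjusted p = 0.912 in limma) and -0.58 ± 0.73 (0.615). Within batch 1 these were 0.80 and 0.38 and within batch 2 -1.35 and -1.76. Trdc (delta chain) was at 0 to 7.22 in culture and at 579 to 880 in blood day 1, a rise of 8.62 ± 0.65 (7.89e-10), and rose by 8.00 ± 0.65 at day 5 (2.17e-09).

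Of 12 co-receptors and co-stimulatory proteins, 5 rose and 2 fell at blood day 1, where 18.1% of all genes tested rose and 14.0% fell. Cd4 went from 7.32 ± 10.8 to 1331 ± 579 (SD), a rise of 8.32 ± 0.75 (adjusted p = 1.34e-08 in limma), Cd2 rose by 8.98 ± 0.88 (4.34e-08), Cd5 by 7.03 ± 0.56 (1.75e-09) and Cd8a by 3.48 ± 0.52 (1.65e-05). Cd8b1 was at 3145 ± 773 in culture and 7453 ± 1821 in blood day 1 without passing (1.20 ± 0.48, 0.0605), so culture held more RNA of the CD8 beta chain than of the alpha chain (per kb 2120 against 98.1). Thy1 fell by 4.46 ± 0.74 (6.00e-05). The inhibitory receptor Ctla4 fell by 5.68 ± 1.28 (0.00145), from culture values of 3159 to 50579. Cd28 (-0.91 ± 0.46, 0.141) and Ptprc, which encodes the CD45 phosphatase (-0.25 ± 0.36, 0.64), were not called.

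Of 9 kinases and phosphatases, 2 rose and 2 fell at blood day 1, near the 18.1% and 14.0% of all genes tested. Zap70, the kinase that docks on phosphorylated CD3 chains, fell from 12230 ± 2352 in culture to 4379 ± 1687 in blood day 1 (-1.54 ± 0.29, adjusted p = 2.12e-04 in limma). Fyn, the other Src kinase of the receptor, rose by 1.37 ± 0.23 (6.99e-05), and the phosphatase Ptpn6 rose by 7.46 ± 1.08 (1.07e-05). Culture thus had Zap70 at a higher level than blood and almost no Lck.

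The lists that follow are small, and the same 18.1% and 14.0% apply to them. Of 13 adaptors, 5 rose and 0 fell at blood day 1, with Skap1 from 12.2 ± 6.94 to 9027 ± 2018 (9.58 ± 0.42, adjusted p = 3.18e-13 in limma) and Sla, which lowers receptor levels, up by 7.46 ± 0.65 (8.03e-09). Lcp2, which encodes SLP-76, rose by 0.99 ± 0.31 (0.0196), a call lost in 6 of 25 alternatives and at 0.11 in batch 2. Downstream, 7 of 14 rose and 4 fell: Rhoh rose by 3.92 ± 0.35 (9.33e-09), while Plcg1 fell by 2.19 ± 0.48 (0.00104) and Nfatc2 by 2.00 ± 0.48 (0.00265). Of 6 transcription factors of the T lineage, 4 rose and 0 fell, led by Tcf7 (TCF-1, 9.48 ± 0.77, 2.74e-09) and Satb1 (7.28 ± 0.89, 1.10e-06). Bcl11b, needed for T and ILC2 identity, was at 1044 ± 94.0 in culture and 688 ± 192 in blood day 1 (-0.64 ± 0.65, 0.49). At blood day 5 the genes with the largest rises and falls in these lists were mostly those of day 1, for example Cd4 (8.55 ± 0.75), Skap1 (9.30 ± 0.42), Tcf7 (10.35 ± 0.77), Thy1 (-4.89 ± 0.74) and Zap70 (-1.74 ± 0.29).

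**Figure D5:**
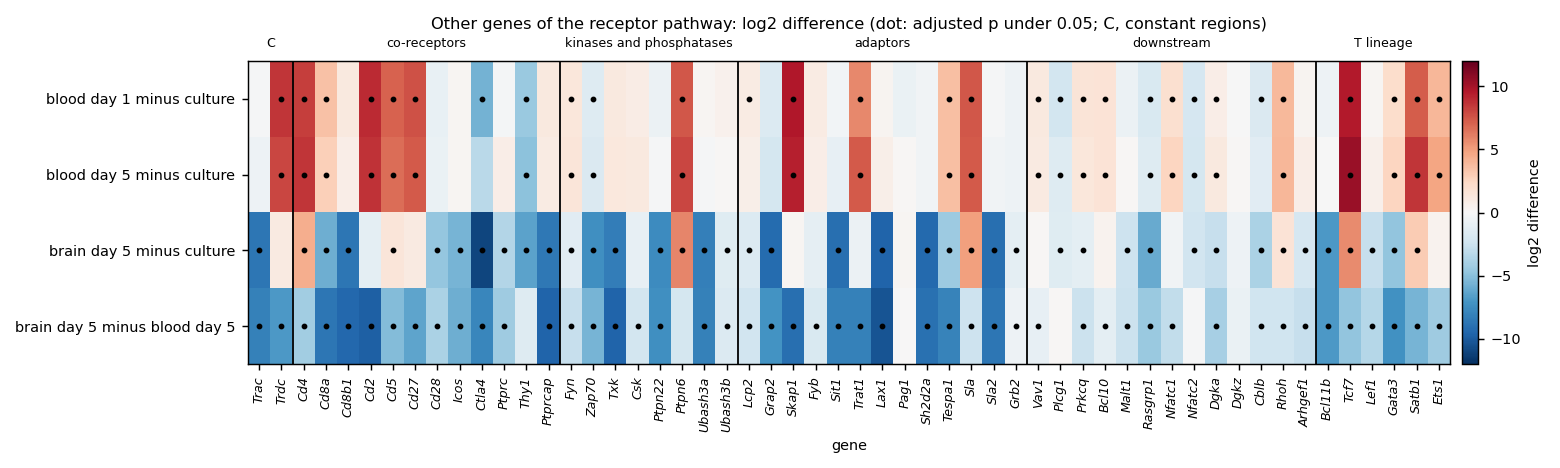
Log2 differences of further genes of the receptor pathway (columns, by list) in 4 comparisons (rows), coloured from blue (lower) to red (higher), with a dot where the adjusted p was under 0.05. The rows of both blood days against culture hold red and blue dotted cells, and no dotted cell of the bottom row, brain against blood day 5, is red.

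Among the pathway genes with the largest falls of their list in brain against culture were Ctla4 (-11.02 ± 1.28), Lax1 (-9.57 ± 0.55), Sh2d2a (-9.35 ± 0.30), Trac (-8.72 ± 0.73) and Cd8b1 (-8.66 ± 0.48), with adjusted p at most 1.37e-07 in limma. Of the 8 that rose, Ptpn6 did so by 5.89 ± 1.08 (6.95e-05), Sla by 4.88 ± 0.65 (1.09e-06), Tcf7 by 5.63 ± 0.77 (1.55e-06) and Cd4 by 4.36 ± 0.75 (3.43e-05). Against blood day 5, Lax1 (-10.32 ± 0.52) and Cd2 (-9.81 ± 0.84) had the largest falls shown here (adjusted p at most 1.22e-09).

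Markers of other cells moved with these results, and their part in them was not tested. NK markers (9 of 12 listed were in the table, all with reads in each group) summed to 0.0342 to 0.0554% of the normalized total in culture, 0.382 to 0.757% in blood day 1, 0.484 to 0.882% in blood day 5 and 0.0677 to 0.386% in brain, where Tyrobp and Fcer1g, also of microglia, had means of 24164 and 17401 but Ncr1 and Klrb1c of 3.94 and 13.5. Ncr1, which defines NK cells and other innate lymphocytes, had a mean of 3.52 in culture and 15346 in blood day 1. Markers of alpha-beta T cells outside the 10 genes (6 of 6, none at 0, all also in the pathway lists) summed to 0.0427 to 0.105% in culture, 0.0511 to 0.155% in blood day 1, 0.0809 to 0.111% in blood day 5 and 8.33e-04 to 0.00195% in brain. Gamma-delta markers (4 of 7 in the table) summed to 0 to 3.91e-05% in culture, with Trdv4 and Sox13 at 0, and to 0.00368 to 0.0282% and 0.00987 to 0.0136% in blood. In brain their sum of 2.24e-04 to 0.00801% overlapped blood day 1, although Trdc had a mean of 3.85 there.

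B cell markers (9 of 9) summed to 8.62e-04 to 0.024% in culture, 0.125 to 0.682% in blood day 1 and 0.374 to 1.16% in blood day 5. Platelet markers (8 of 8) had 3.08e-04 to 0.0362% in culture, 0.369 to 5.43% in blood day 1 and 0.153 to 1.54% in blood day 5, and erythroid markers (4 of 7 in the table) 0.00104 to 0.409%, 0.357 to 8.39% and 0.267 to 3.72%. Neutrophil markers (7 of 7) had 0.00115 to 0.0185% in culture, 0.0409 to 0.240% in blood day 1, 0.174 to 2.57% in blood day 5 and 0.0131 to 0.0569% in brain. Monocyte markers (5 of 7 in the table) had 0.00280 to 0.00936%, 0.0153 to 0.0916%, 0.0765 to 0.114% and 0.144 to 0.529%. In brain, microglia markers (8 of 8) summed to 0.501 to 1.30% and those of astrocytes, neurons, oligodendrocytes and choroid plexus (12 of 12) to 2.11 to 8.39%, against at most 0.105% and 0.205% in any other group. ILC2 markers (11 of 13 in the table) summed to 0.125 to 0.273% in culture, 0.0146 to 0.0803% in blood day 1, 0.0563 to 0.136% in blood day 5 and 0.0103 to 0.0219% in brain. Klrg1 (mean 23914 in culture and 6567 in blood day 1) and Il2ra (15251 and 173) carried most of the culture sum. By their means, other genes of this list lay above their culture level at blood day 1, among them Il1rl1, the IL-33 receptor (1.08 and 135), Il7r (24.5 and 1392), Rora (59.8 and 914) and Gata3 (315 and 1279).

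Likeness was measured over the 23 libraries after subtracting batch means from log2 values. Cd3d, Cd3e, Cd3g, Trbc1, Trbc2 and Cd247 had pairwise Pearson r of 0.92 to 0.99, and Lck and Cd6 had 0.97 with each other but 0.22 to 0.66 with those 6. Lat had 0.72 with Lck and 0.88 with Cd3e. These are descriptions over 23 libraries, whose points share group, library and depth and include the brain libraries near 0. The 5 genes most like Cd3e by the same measure were Sit1 (0.983), Pglyrp2 (0.975), Ctsw (0.973), Trgv2 (0.973) and Sigirr (0.973). For Lck they were Gimap4 (0.985), Cd5 (0.978), Ncr1 (0.976), Fcrla (0.973) and Cxcr5 (0.973). Cd247 was closest to Dok2 (0.996), Cd8b1 (0.993), Ctsw (0.991), Il2rb (0.987) and Itgb7 (0.987), and Trbc2 to Ctsw (0.990), Tbc1d10c (0.988), Cd8b1 (0.988), Dok2 (0.988) and Fasl (0.987).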

How the data were processed

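Per the labels' protocols, mRNA was captured on poly-T beads and sequenced in pairs of 150 bp. The submitters' processing notes name fastp, HISAT2 2.0.5 and mm10. No source used here gives the read counter or its strand setting. The deposited signal values, normalized counts made by the authors, are read counts divided by 1 factor per library: 100.0% of values were whole reads within 0.1 read, and median-of-ratios factors recomputed over 7556 genes without a zero differed by at most 1.44e-08 percent. Counting error alone is covered by floors of 3 reads per library.

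All 23 libraries entered 1 limma 3.58.1 fit (R 4.3.3, trend and robust) of log2(value + 1) on group and batch, with a threshold of 0.05 after Benjamini-Hochberg adjustment over 15268 genes. A pseudocount of 1 understates changes of low genes. Alternatives included edgeR 4.0.16 and DESeq2 1.42.0 on recovered reads. The procedure was also run on simulated counts with no batch effect and with changes far smaller than the largest ones here. That run does not bear on differences from groups near 0. Exact permutation tests used scipy 1.17.1. GENCODE M21 symbols matched 19931 of 19945 rows. Brain against blood day 1 was left out, since tissue and day change together.

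The 10 genes and all lists were chosen with earlier results of these data known. Named besides them were fixed pathway genes (Trgc1 and Trgc2 not analysed here), in each list the 2 largest rises and 2 largest falls called per comparison, fixed markers where a result turned on them, and the 5 genes most like Cd3e, Trbc2, Cd247 and Lck. Largest rises and falls were ranked by log2 difference. Some results that these rules name are not reported here and not drawn, although counts over lists include them.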

Additional observations from a re-analysis of the deposited data

Results flagged for a closer look

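In each group of 5 or 6 libraries, the highest and the lowest value of each of the 10 genes was compared with the nearest other library, and 7 of 40 gene and group pairs had 1 library far from the rest by Dixon's 95% criterion on the gap over the range, both taken on log2(value + 1). Chance flags about 1 in 20 groups. In culture these were Themis in replicate 5 at 6486 (next value 1033), Trbc2 in replicate 5 at 13841 (next 5670) and Cd247 in replicate 4 at 7826 (next 5076). In blood they were Trbc1 in day 1 replicate 6 at 5537, the lowest (next 8100), and Lat in day 5 replicate 2 at 21146 (next 7488). In brain they were Cd3e in replicate 1 at 0 (next 6.89) and Cd247 in replicate 3 at 1.72 (next 11.2), which are 0 and 1 reads.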

How the results depend on the processing

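Of 1270 alternatives to the 50 log2 differences of the 10 genes, 1211 stayed on their side of the threshold, 33 lost a call and 26 gained one. In 14, all of differences not called either way, the sign changed. Of 403 alternatives to the 20 summary results, 378 stayed within 1.5 times for a count, within 1 SD of the libraries for a value, or on their side of the threshold for a test. Genes called at blood day 1 against culture numbered 2677 in batch 2 alone (4905 in all). Blood day 5 against blood day 1, with 16 genes, gave 7 in batch 1, 80 in batch 2, 10 with both groups alone, 9 with the closest libraries averaged, 5 by edgeR, 133 by DESeq2 and 6 to 21 leaving out 1 library. Leaving out 1 library gave 5 to 7, 6 to 7, 8 to 9, 0 and 10 of the 10 genes called in the 5 comparisons. The Cd247 to Cd3e difference was 0.86 in batch 1 and 2.66 in batch 2 at blood day 1, and 2.21 in batch 2 at blood day 5. Variable segment differences were 0.0148 and 0.00374 with Trav and Trbv alone, 0.00690 for blood day 5 and -0.0553 for brain against culture in batch 2, 0.0250 to 0.0379 for blood day 1 leaving out 1 library, and -0.0190 to -0.00613 between blood days, where leaving out blood day 1 replicate 2 passed (adjusted p = 0.00722, exact permutation test). The cause was not tested.

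Libraries scaled to equal totals moved the median of all genes from 0.14 to 0.44 for blood day 5 against culture (3662 higher, 1154 lower, against 3000 and 1748), from 0.12 to 0.33 between the blood days and from 0.47 to 0.08 for brain against blood day 5 (4383 higher, 2978 lower, against 5123 and 2183; 4141 and 2816 by edgeR). EdgeR moved it from 0.67 to 0.22 for brain against culture (4784 higher, 2746 lower, against 5733 and 1780). With equal totals Trbc2 rose in both blood days (0.94 and 0.80, adjusted p = 0.0133 and 0.0319 in limma). EdgeR on the recovered reads called 2991 higher and 1804 lower at blood day 1 and 2836 and 1764 at blood day 5 against culture. DESeq2 gave 65 higher and 68 lower between blood days.

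Whether replicate numbers pair the libraries was left unsettled. Deviations correlated at -0.104 to 0.189 (median 0.0141) for the same number and -0.167 to 0.120 (median -0.00807) for different ones. In 17 of 33 comparisons a library correlated best with its own number. That share is larger than a random pick among the libraries of a group and batch would give, and it was not tested. With the replicate block, 10 genes were called between the blood days and 6 of the 10 genes in each blood comparison with culture, where Cd3e at blood day 5 missed the threshold (-1.51, adjusted p = 0.051 in limma). In brain the 10 genes had only 5 to 594 reads each over 6 libraries, which limits the precision of their values there.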
